A study of Mus musculus with 4 samples.

Results

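The cyclin-dependent kinase (CDK) inhibitor and p53 pathway genes Cdkn1a, Cdkn1b, Cdkn2a, Cdkn2b, Cdkn2c, Cdkn2d, Trp53, Mdm2, Ccng1 and Rb1 were followed in 4 RNA-Seq libraries of mouse brown preadipocytes, the cultured precursor cells of brown fat. They are 10 of the 22463 gene symbols in the deposited tables and hold 13 of the 29082 transcripts listed there. Each gene was chosen by symbol and represented by its transcript with most reads over the 4 libraries. Of the 10 genes, 9 had an RPKM (reads per kilobase of exon per 1000000 mapped reads) above 1 in at least 1 library, as did 11861 genes in all, and Cdkn2d was listed at 0 reads in every library.

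The cells came from C57BL/6J E18.5 embryos with the genotype Mll3-/-Mll4 f/f, in which the histone methyltransferase gene Mll3 is deleted and the related gene Mll4 (Kmt2d) can be removed by Cre recombinase. All 4 libraries therefore share the Mll3 deletion, immortalization by SV40T, the large T antigen of simian virus 40, and an adenoviral infection. Ad-GFP cells received adenovirus expressing green fluorescent protein and are labelled WT in the sample titles, although their genotype is MLL3-/-, and Ad-Cre cells received adenovirus expressing Cre and are labelled MLL3-/-;MLL4-/-. Cells were taken at day 0 (confluent preadipocytes) and at day 2, after induction with insulin, T3, indomethacin, dexamethasone and IBMX. There was 1 library per condition, so no difference below has a replicate check. Each ratio is given with an exact binomial 95% confidence interval, computed from the reads of the pair of libraries. These intervals cover counting error only and compare libraries, not conditions.

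The INK4 proteins, encoded by Cdkn2a, Cdkn2b, Cdkn2c and Cdkn2d, bind CDK4 and CDK6 and keep cyclin D from activating them, while the CIP/KIP proteins p21 (Cdkn1a) and p27 (Cdkn1b) mainly restrain cyclin E-CDK2 and cyclin A-CDK2. Active CDKs phosphorylate the retinoblastoma protein, the product of Rb1, and release E2F transcription factors that drive entry into S phase. Cdkn2a has a second product, p19ARF, which binds the ubiquitin ligase MDM2 and so stabilizes p53, and p53 in turn activates Cdkn1a, Mdm2 and Ccng1. SV40 large T antigen binds both the retinoblastoma protein and p53, and Rb family proteins are known to take part in adipocyte differentiation. Adipocytes at the end of differentiation have withdrawn from the cell cycle, while day 2 lies during adipogenesis, before that end.

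Cdkn2a makes 2 proteins from alternative first exons joined to the same exons 2 and 3, in different reading frames. The sequences below are shown because the 2 transcripts are told apart in these data by their first exons alone. The coding parts are given from NCBI37/mm9 at chr4:88927890-88928015 (exon 1 alpha, p16INK4a) and chr4:88940238-88940427 (exon 1 beta, p19ARF), minus strand, 5′ to 3′, with the start codon in capitals.
Cdkn2a exon 1 alpha: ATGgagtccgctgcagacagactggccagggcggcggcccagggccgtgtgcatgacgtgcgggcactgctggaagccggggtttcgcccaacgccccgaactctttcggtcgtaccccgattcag
Cdkn2a exon 1 beta: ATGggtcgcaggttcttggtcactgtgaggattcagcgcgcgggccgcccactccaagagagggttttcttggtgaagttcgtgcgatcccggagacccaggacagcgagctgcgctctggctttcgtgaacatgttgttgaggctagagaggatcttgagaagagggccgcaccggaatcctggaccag

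The 2 first exons have separate promoters, and the neighbouring Cdkn2b has its own. The 250 bases before each start are given from RefSeq on GRCm38.p6, minus strand, since Cdkn2a and Cdkn2b differed together between the libraries. The windows lie at chr4:89294620-89294869 (p19ARF), chr4:89282193-89282442 (p16INK4a) and chr4:89311033-89311282 (Cdkn2b). Capitals mark the E2F words TTTCCCGC, TTTCGCGC, TTTGCCGC and TTTGGCGC and the GC box GGGCGG, searched on both strands.
p19ARF promoter: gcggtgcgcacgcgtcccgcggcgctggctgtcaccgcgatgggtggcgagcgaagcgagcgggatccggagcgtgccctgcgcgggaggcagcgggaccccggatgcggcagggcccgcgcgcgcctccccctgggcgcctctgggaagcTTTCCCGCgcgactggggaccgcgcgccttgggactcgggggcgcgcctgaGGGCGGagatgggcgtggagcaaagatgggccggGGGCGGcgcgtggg
p16INK4a promoter: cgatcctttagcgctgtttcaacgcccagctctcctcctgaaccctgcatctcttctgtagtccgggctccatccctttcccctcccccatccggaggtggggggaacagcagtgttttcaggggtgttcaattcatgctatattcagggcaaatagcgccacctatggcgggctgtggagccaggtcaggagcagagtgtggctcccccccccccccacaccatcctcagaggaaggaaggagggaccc
Cdkn2b promoter: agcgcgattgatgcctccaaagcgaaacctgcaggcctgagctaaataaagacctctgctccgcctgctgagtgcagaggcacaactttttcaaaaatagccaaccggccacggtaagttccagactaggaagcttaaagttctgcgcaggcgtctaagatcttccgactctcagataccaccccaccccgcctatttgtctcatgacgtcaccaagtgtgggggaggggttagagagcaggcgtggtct

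The p19ARF window held 1 E2F word and 2 GC boxes, which did not overlap, and 40 CG dinucleotides, with a G plus C content of 78.4%. The p16INK4a window held 7 CG dinucleotides and the Cdkn2b window 12, and neither held any of these words. Over the 32851 RefSeq promoter windows of the same length, 1.86% held one of these E2F words, 32.7% held a GC box and the median was 6 CG dinucleotides. A match to the p53 consensus decamer was present in 7.13% of all windows, and among the genes studied in windows of Cdkn1a (2 matches), Mdm2 (1), Ccng1 (1), Trp53 (1) and Cdkn2d (1). These matches describe letters in the windows and were not tested as binding sites.

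The reads behind the deposited RPKM values numbered between 17198448 and 22986362 per library, so that 3 reads on a transcript of 1 kb amount to between 0.131 and 0.174 RPKM. The summed RPKM of 5 preadipocyte and mesenchymal markers went with time from 1714 to 169.7 with Ad-GFP and from 1329.8 to 261 with Ad-Cre. Most of the sum at day 0 was Col1a1 (1246.5 and 1009.6), and Ebf2 went the other way, from 9.70 to 16.1 and from 4.77 to 11.1. That of 6 adipocyte markers was 30.4 (Ad-GFP) and 15.7 (Ad-Cre) before induction and 1999 and 490.4 after it. Of 4 brown adipocyte markers, 3 were under 0.1 RPKM in every library, with Cidea at 0 and Ucp1 at no more than 1 read. The other, Prdm16, went with time from 0.55 to 2.14 RPKM with Ad-GFP and from 0.69 to 0.68 with Ad-Cre. No endothelial, leukocyte or skeletal muscle marker passed 1 RPKM in any library. Kmt2d had between 5595 and 8530 reads over its whole transcript, which does not separate the deleted exons and so does not check the deletion. These markers differed between the libraries of every comparison, and their part in the results was not tested. In bulk RNA fewer cells of a type and less RNA per cell cannot be told apart.

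Cdkn2a (NM_009877, chr4:88920377-88940557 in NCBI37/mm9, minus strand), the most abundant of the genes per length of transcript in every library, had 406 RPKM in Ad-GFP cells at day 0, 295 in Ad-GFP cells at day 2, 280.1 in Ad-Cre cells at day 0 and 1130.1 in Ad-Cre cells at day 2. The Ad-Cre day 2 library thus stood above the other 3, which lay close together. Of the expressed genes, 99.9% had an RPKM no higher than Cdkn2a in that library. From day 0 to day 2 Cdkn2a rose 4.03-fold in Ad-Cre cells, from 5077 to 18931 reads (log2 ratio 2.01, interval 1.97 to 2.06), whereas in Ad-GFP cells its log2 ratio was -0.46 (interval -0.51 to -0.41). At day 2 it was 3.83-fold higher with Ad-Cre than with Ad-GFP (log2 ratio 1.94, interval 1.89 to 1.98), and at day 0 the log2 ratio was -0.53.

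The second Cdkn2a transcript in the tables (NM_001040654, p16INK4a) had 371, 241, 273 and 991 RPKM in Ad-GFP day 0, Ad-GFP day 2, Ad-Cre day 0 and Ad-Cre day 2. Its log2 ratio of day 2 to day 0 was 1.86 with Ad-Cre and -0.62 with Ad-GFP, and its day 2 Ad-Cre/Ad-GFP ratio was 2.04. The 643 bases of exons 2 and 3 are counted for both transcripts, so these are not separate measurements. The difference in reads between the 2 transcripts is the reads on exon 1 beta (286 bases, p19ARF) less those on exon 1 alpha (207 bases, p16INK4a).

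The p19ARF transcript had more reads than the p16INK4a transcript in every library, by 1052 reads in Ad-GFP day 0, 1594 in Ad-GFP day 2, 542 in Ad-Cre day 0 and 3741 in Ad-Cre day 2. Exon 1 beta therefore held at least that many reads. Scaled to the library totals (reads per 1000000 mapped reads) the difference was 61.2, 69.3, 27.8 and 207, lowest in Ad-Cre cells at day 0 and highest in Ad-Cre cells at day 2. It made up between 10.7% and 25.3% of the p19ARF transcript's reads, where exon 1 beta is 30.8% of that transcript's length. The reads of each first exon on its own are not in the tables, so no ratio was drawn from this difference.

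**Figure D1:**
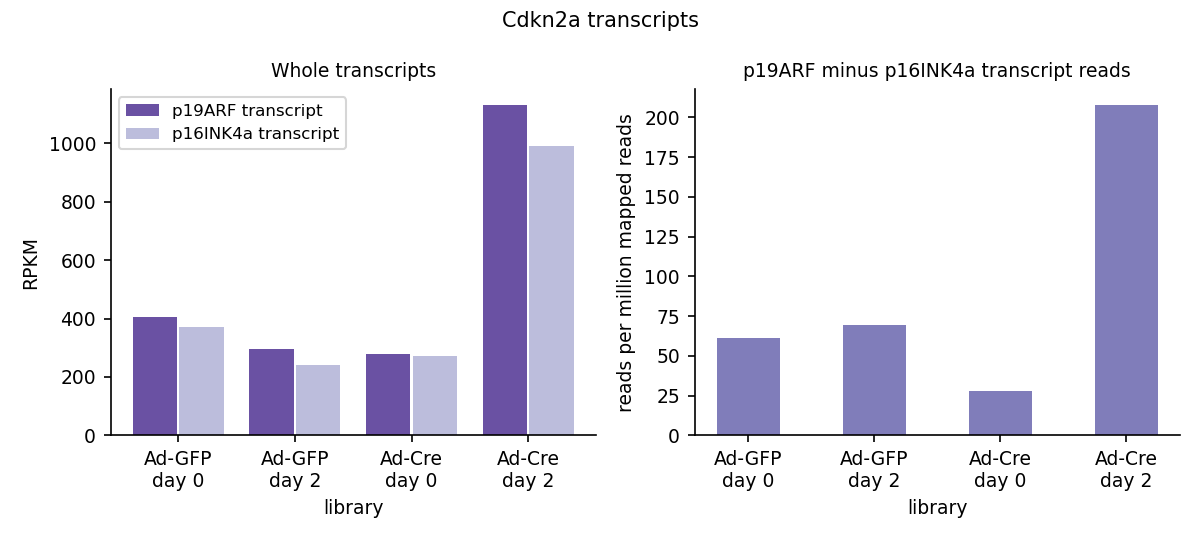
Left, RPKM of the p19ARF and p16INK4a transcripts of Cdkn2a in each library, as bars from 0. Right, the difference in reads between these transcripts per 1000000 mapped reads, 1 bar per library without replicates. Both transcripts were highest in Ad-Cre cells at day 2 (1130.1 and 991 RPKM), and the difference there was 207 in that unit against 27.8 to 69.3 in the other libraries.

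Cdkn2b (NM_007670, chr4:88952198-88956941, minus strand), which encodes p15INK4b and lies beside Cdkn2a, had 33.6 RPKM in Ad-GFP day 0, 23.7 in Ad-GFP day 2, 18.1 in Ad-Cre day 0 and 57.8 in Ad-Cre day 2. Its order over the libraries was that of Cdkn2a, at a lower level. It rose 3.19-fold in Ad-Cre cells, from 492 to 1451 reads (log2 ratio 1.67, interval 1.53 to 1.82), while its log2 ratio in Ad-GFP cells was -0.51 (interval -0.65 to -0.36). At day 2 the ratio of Ad-Cre to Ad-GFP cells was 2.44-fold (log2 1.29, interval 1.16 to 1.41), just inside the 2.5-fold cutoff. It was past the cutoff with TMM (trimmed mean of M-values) scaling (log2 1.42). That log2 ratio was 1.00 with the median of genes of like length divided out, and 0.76 with GC content divided out as well. Mtap, the next gene of the locus, which was chosen after its values were seen, had 24.5, 17.9, 20.9 and 16.3 RPKM in the same order of libraries and did not follow Cdkn2a and Cdkn2b.

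Cdkn2c (NM_007671, chr4:109333481-109339794, minus strand), encoding p18INK4c, had 44.3 RPKM in Ad-GFP day 0, 126 in Ad-GFP day 2, 38.8 in Ad-Cre day 0 and 70.0 in Ad-Cre day 2. It was higher at day 2 than at day 0 in both kinds of cells, unlike Cdkn2a and Cdkn2b. The rise passed 2.5-fold in Ad-GFP cells (842 to 3192 reads, 2.84-fold, log2 ratio 1.50, interval 1.39 to 1.62), and the log2 ratio in Ad-Cre cells was 0.85 (interval 0.73 to 0.98), or 0.23 with the median of genes of like transcript length divided out. Its day 2 Ad-Cre/Ad-GFP log2 ratio was -0.84 (interval -0.93 to -0.75), opposite in sign to those of Cdkn2a and Cdkn2b.

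Cdkn2d (NM_009878, chr9:21092907-21095653, minus strand), encoding p19INK4d, had 0 reads in all 4 libraries, which allows up to between 0.103 and 0.137 RPKM per library at 3 reads on its 1271 bases. Of the 123 windows of 50 bases in its transcript, 119 matched a second place on chromosome 9, at chr9:123836860-123839607, with at most 2 mismatches. How reads with several matches were treated is not given in the sources used here. None of 32 common housekeeping genes and none of 78 ribosomal protein genes was at 0 in all 4 libraries, but Gapdh, which has many processed copies in the mouse genome, had between 24 and 57 reads where Actb had between 17204 and 72841. The part of the second copy in the zero of Cdkn2d was not tested, and no statement on its expression is made.

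**Figure D2:**
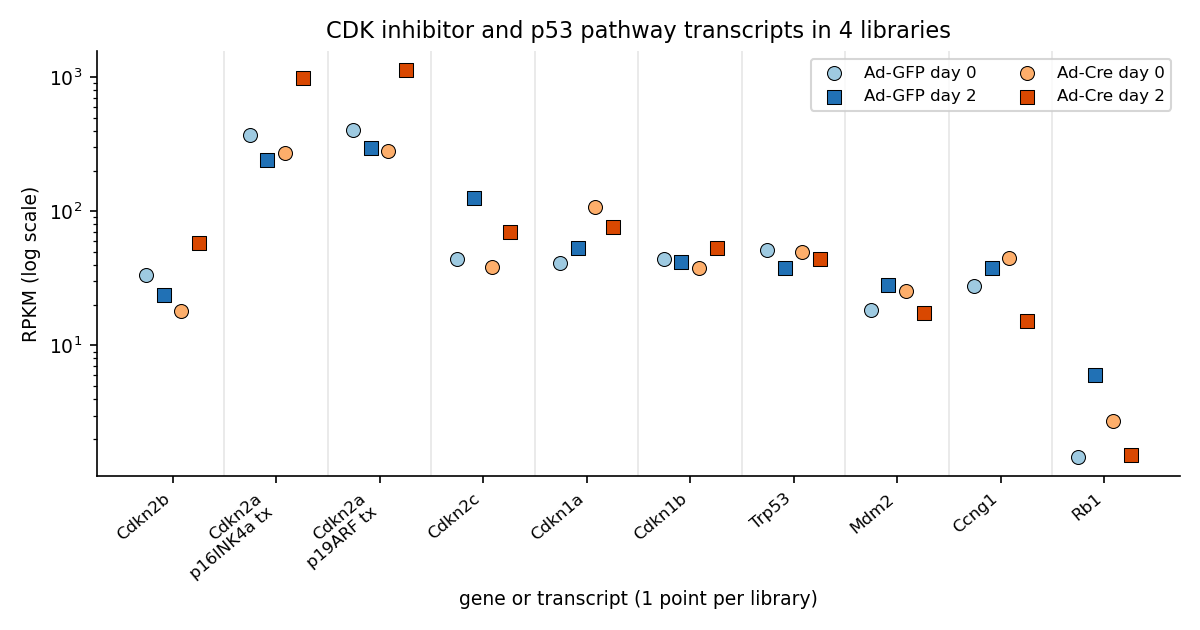
RPKM on a log axis of 9 expressed genes, with both Cdkn2a transcripts, in each of the 4 libraries (circles day 0, squares day 2, blue Ad-GFP, orange Ad-Cre), 1 point per library. Cdkn2a lies between 280.1 and 1130.1 RPKM and Rb1 between 1.47 and 6.01, and Cdkn2d, listed at 0, is not drawn.

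Of the CIP/KIP genes, Cdkn1a (NM_007669, chr17:29227924-29237667, plus strand) had 41.0 RPKM in Ad-GFP day 0, 53.1 in Ad-GFP day 2, 107 in Ad-Cre day 0 and 76.7 in Ad-Cre day 2. Both Ad-Cre libraries were above both Ad-GFP libraries. At day 0 it was 2.61-fold higher with Ad-Cre than with Ad-GFP (1347 against 3984 reads, log2 ratio 1.38, interval 1.29 to 1.47), the single gene of the 10 past the cutoff at that time, and the lower bound of its interval lies under the log2 cutoff of 1.32. The log2 ratio at day 2 was 0.53, and the change with time was 0.37 with Ad-GFP and -0.48 with Ad-Cre. Its second transcript, NM_001111099, had 37.9, 50.7, 103 and 73.9 RPKM and shares most of its exons.

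Cdkn1b (NM_009875, chr6:134870419-134875531, plus strand) had 43.9 RPKM in Ad-GFP day 0, 41.7 in Ad-GFP day 2, 38.0 in Ad-Cre day 0 and 53.3 in Ad-Cre day 2. It did not pass the cutoff in any of the 4 comparisons, its log2 ratios lay between -0.21 and 0.49, and its range over the 4 libraries was 1.40-fold. In Ad-GFP cells the interval of its change with time, -0.16 to 0.02 on the log2 scale, held no change.

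Trp53 (NM_001127233, chr11:69393861-69405375, plus strand), the gene of p53, had 51.6 RPKM in Ad-GFP day 0, 38.1 in Ad-GFP day 2, 50.1 in Ad-Cre day 0 and 44.5 in Ad-Cre day 2. This was the narrowest range of the 9 expressed genes, 1.35-fold, and no comparison passed the cutoff. Of the 182 windows of its transcript, 86 also matched chr17:54558922-54560498 with at most 2 mismatches, so that its reads may be shared with another place in the genome. Apart from Trp53 and Cdkn2d, at most 3.17% of the windows of any of the 10 genes matched elsewhere.

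Mdm2 (NM_010786, chr10:117125944-117147814, minus strand), encoding the ubiquitin ligase that p53 activates and that degrades p53, had 18.3 RPKM in Ad-GFP day 0, 28.1 in Ad-GFP day 2, 25.3 in Ad-Cre day 0 and 17.3 in Ad-Cre day 2. Its log2 ratio of day 2 to day 0 was 0.62 (interval 0.50 to 0.73) in Ad-GFP and -0.55 (interval -0.67 to -0.43) in Ad-Cre cells. The ratios of Ad-Cre to Ad-GFP cells were likewise of opposite sign, with log2 values of 0.46 at day 0 and -0.70 at day 2, and none of these passed 2.5-fold. The day 2 value was -0.38 with the median of genes of like length divided out, and -0.08 with GC content divided out as well. In these settings the change of Mdm2 with time in Ad-Cre cells was -0.40 and -0.12.

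Ccng1 (NM_009831, chr11:40562054-40568813, minus strand), a p53 target that encodes cyclin G1, had 27.8 RPKM in Ad-GFP day 0, 37.9 in Ad-GFP day 2, 44.6 in Ad-Cre day 0 and 15.3 in Ad-Cre day 2. It was highest in Ad-Cre cells at day 0 and lowest in Ad-Cre cells at day 2. In Ad-Cre cells it fell 2.92-fold, from 3037 to 960 reads (log2 ratio -1.55, interval -1.65 to -1.44), against a log2 ratio of 0.45 in Ad-GFP cells. At day 2 it was 2.48-fold lower with Ad-Cre than with Ad-GFP (log2 ratio -1.31, interval -1.42 to -1.21), just inside the cutoff, and at day 0 the log2 ratio was 0.68. The day 2 value was -0.84 with the median of genes of like length divided out, and -0.57 with GC content divided out as well. The order of the libraries was shared with Mdm2 except at the top, where Mdm2 was highest in Ad-GFP cells at day 2.

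Rb1 (NM_009029, chr14:73583480-73725629, minus strand), the least abundant per length of the 9 expressed genes in every library, had 1.47 RPKM (117 reads) in Ad-GFP day 0, 6.01 (639 reads) in Ad-GFP day 2, 2.75 (248 reads) in Ad-Cre day 0 and 1.52 (127 reads) in Ad-Cre day 2. The Ad-GFP day 2 library stood above the other 3. Rb1 rose 4.09-fold in Ad-GFP cells (log2 ratio 2.03, interval 1.74 to 2.33), while in Ad-Cre cells the log2 ratio was -0.85 (interval -1.17 to -0.54). At day 2 it was 3.95-fold lower with Ad-Cre than with Ad-GFP (log2 ratio -1.98, interval -2.27 to -1.70), and at day 0 the log2 ratio was 0.90 (interval 0.58 to 1.23). Its transcript shares 105 bases with Rcbtb2 on the opposite strand, which is 2.26% of it, and whether the counting used strand is not given in the sources used here.

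Per length, the order of the levels was led by Cdkn2a and closed by Rb1 in all 4 libraries. In Ad-GFP cells at day 0 Cdkn2c, Cdkn1b and Cdkn1a followed each other without a difference beyond counting error between neighbours, at 44.3, 43.9 and 41.0 RPKM. The same held for Trp53 and Ccng1 in Ad-GFP cells at day 2 and for Cdkn2c and Cdkn1b in Ad-Cre cells at day 0. All other neighbours in the order differed beyond counting error.

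In the comparison of day 2 with day 0 in Ad-GFP cells, which follows adipogenesis in the control, 2 of 9 expressed genes were over 2.5-fold higher (Cdkn2c and Rb1) and 0 lower, where 8.43% of all expressed genes were higher and 13% lower. In Ad-Cre cells 2 were higher (Cdkn2a and Cdkn2b) and 1 lower (Ccng1), against 9.61% and 10.4% of all expressed genes. Ad-Cre and Ad-GFP cells differ in Mll4 deletion and in the adenoviral product, Cre or green fluorescent protein, and these cannot be told apart here. In Ad-Cre over Ad-GFP cells, 1 was higher (Cdkn1a) and 0 lower at day 0, against 2.08% and 4.17%. At day 2, 1 was higher (Cdkn2a) and 1 lower (Rb1), against 9.59% and 9.87%. The comparisons share libraries pairwise, and with 9 genes a single gene is over 10% of the list, so these counts do not set the list apart from other genes. The median log2 ratio of all expressed genes was 0.14 for the change with time in the control and -0.14 for the day 2 Ad-Cre/Ad-GFP ratio, and within 0.02 of 0 in the other comparisons. With TMM scaling these shifts were 0.04 and -0.01.

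**Figure D3:**
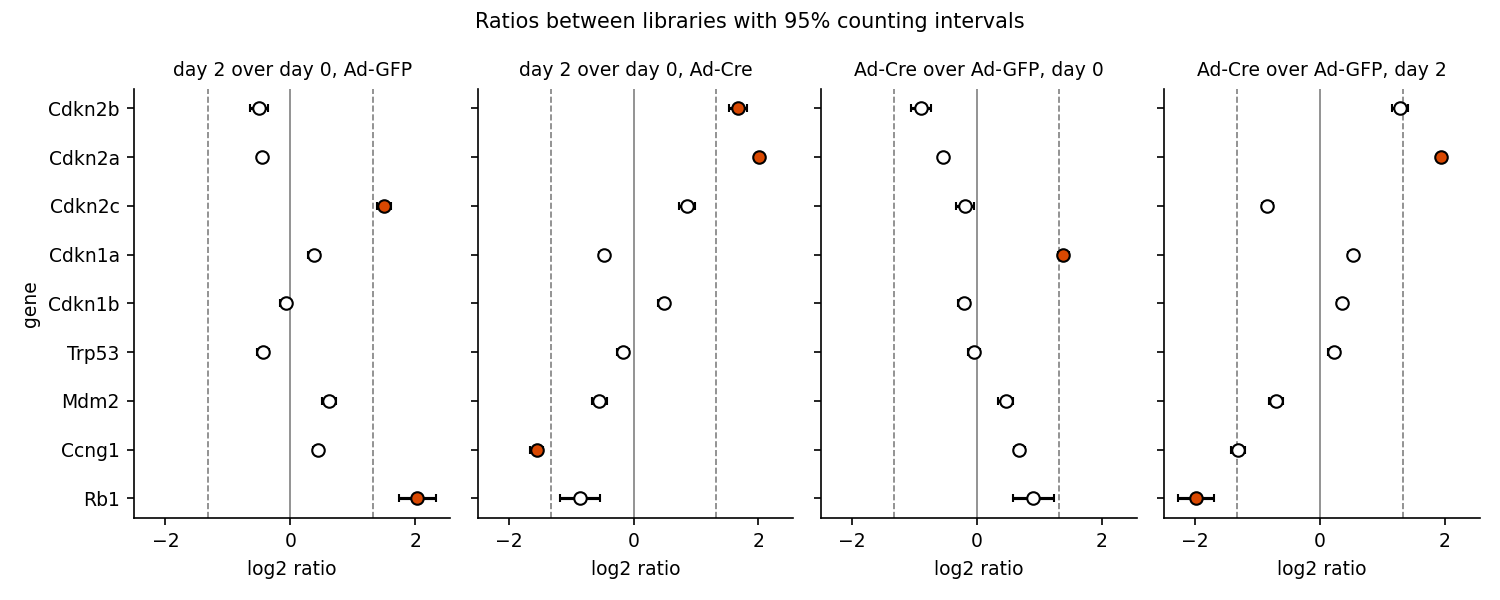
Log2 ratios (x axis) of the 9 expressed genes in the 4 comparisons, with exact 95% counting intervals as bars, which are widest for Rb1. Dashed lines mark 2.5-fold and filled points lie past it, such as Rb1 at 2.03 in Ad-GFP cells with time and Cdkn2a at 1.94 in the day 2 Ad-Cre/Ad-GFP ratio.

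In the Ad-Cre day 2 library the ratios of all genes moved with transcript length. The median log2 ratio of day 2 to day 0 in Ad-Cre cells was 0.91 in the shortest of 20 length bins and -0.67 in the longest, and that of Ad-Cre to Ad-GFP cells at day 2 was 0.54 and -0.80. The highest ratios in that library belonged to short transcripts (Cdkn2a 929 bases, Cdkn2b 1393) and the lowest to long ones (Ccng1 3487, Rb1 4625). Cdkn2c, also short (1106 bases), did not follow this order at day 2. Its Ad-Cre/Ad-GFP log2 ratio there was -0.84, or -1.21 with the median of its length bin divided out. With the median of the length bin divided out, the change with time in Ad-Cre cells was 1.27 for Cdkn2a, 1.18 for Cdkn2b and -1.22 for Ccng1 on the log2 scale, so that none of the 3 passed the cutoff. In the day 2 Ad-Cre/Ad-GFP ratio Cdkn2a (1.42) and Rb1 (-1.43) still passed it. With GC content divided out as well, a setting added after the data had been seen, Cdkn2a was at 1.03 and Rb1 at -1.18 at day 2, and Cdkn2c was at 1.20 with time in Ad-GFP cells, all inside the cutoff. Rb1 with time in Ad-GFP cells (1.79) and Cdkn1a at day 0 (1.42) passed it in both settings. The part of transcript length and GC content in these differences was not tested.

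**Figure D4:**
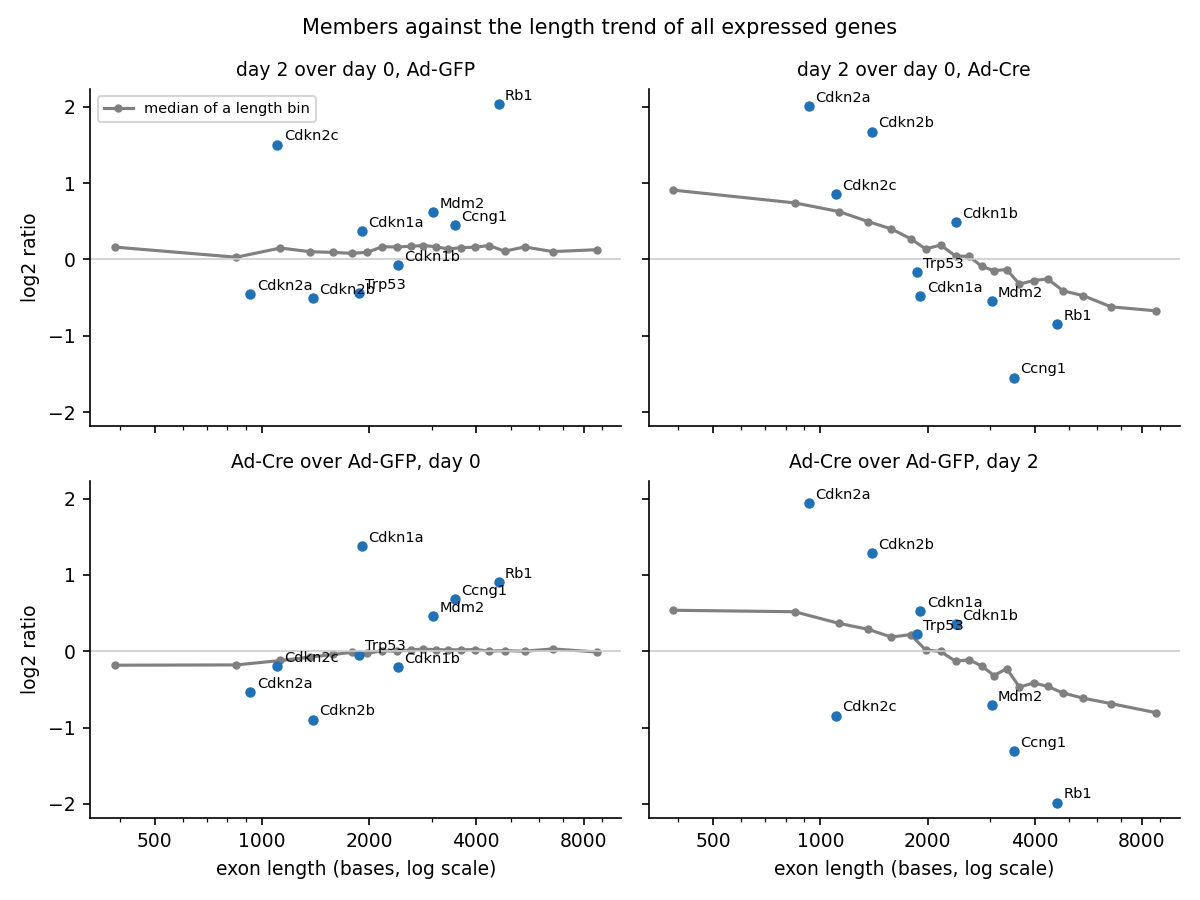
Log2 ratio against exon length (log axis) in the 4 comparisons. The grey line joins the medians of 20 length bins of all expressed genes and blue points are the genes studied. The line falls from 0.91 to -0.67 for Ad-Cre cells with time and from 0.54 to -0.80 for the day 2 Ad-Cre/Ad-GFP ratio, with Cdkn2a and Cdkn2b above it and Rb1 and Ccng1 below it.

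Beyond Cdkn1a, Mdm2 and Ccng1, 29 of 30 listed p53 target genes were expressed. At day 0, 25 of the 29 had a ratio of Ad-Cre to Ad-GFP cells above 1, with a median log2 ratio of 0.44 against -0.02 for all expressed genes. Past 2.5-fold were 4 of them, all higher, namely Fas, a death receptor (log2 ratio 1.89, 32 against 135 reads), Pmaip1, encoding the BH3-only protein NOXA (1.69, 39 against 143 reads), Plk2, a polo-like kinase (1.58, 1253 against 4240 reads), and Tigar, a regulator of glycolysis (1.40, 130 against 388 reads). Of all expressed genes 2.08% were past 2.5-fold higher and 4.17% lower in this comparison. The 4 genes had the direction of Cdkn1a, Mdm2 and Ccng1 at day 0. Of the 29, Pmaip1 (2.76 RPKM) and Eda2r (2.03 RPKM) were above 1 RPKM in Ad-Cre day 0 alone. The filter thus favoured a higher ratio for both, and both are among the 25 above 1.

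From day 0 to day 2 the p53 targets had a median log2 ratio of 0.55 in Ad-GFP cells, against 0.14 for all expressed genes, and -0.30 in Ad-Cre cells, against -0.01. In Ad-GFP cells 6 of the 29 rose past 2.5-fold and 2 fell, where 8.43% of all expressed genes were higher and 13% lower. The rises were led by Gdf15, a stress-induced cytokine (2.34, 24 to 162 reads), Trp53inp1 (2.29, 470 to 3066 reads), Gadd45a, a growth arrest gene (2.07, 150 to 840 reads), and Tigar (1.81), and the falls were Plk2 (-3.02) and Plk3 (-1.71). In Ad-Cre cells 0 rose and 6 fell, against 9.61% higher and 10.4% lower among all expressed genes. The falls included Plk2 (-3.36), Eda2r (-2.65), Pmaip1 (-2.46) and Plk3 (-2.36), so that both polo-like kinase genes fell in both kinds of cells. Eda2r and Pmaip1 counted as expressed through Ad-Cre day 0 alone, the library they fell from, so the filter favoured these falls.

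At day 2, 1 p53 target was past 2.5-fold higher with Ad-Cre than with Ad-GFP and 6 were lower, where 9.59% of all expressed genes were higher and 9.87% lower. The higher one was Fas (log2 ratio 2.03, 20 against 64 reads), named here although it had under 100 reads. The lower ones were led by Rrm2b (-2.12), Trp53inp1 (-1.84), Gadd45a (-1.71) and Tigar (-1.42). The median was -0.53 against -0.14 for all expressed genes. With the length trend divided out it was -0.15, with 2 genes higher (Fas and Plk2) and 3 lower (Gadd45a, Gdf15 and Rrm2b), so that Trp53inp1 and Tigar were inside the cutoff. At day 0 the median was 0.49 with the length trend divided out.

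**Figure D5:**
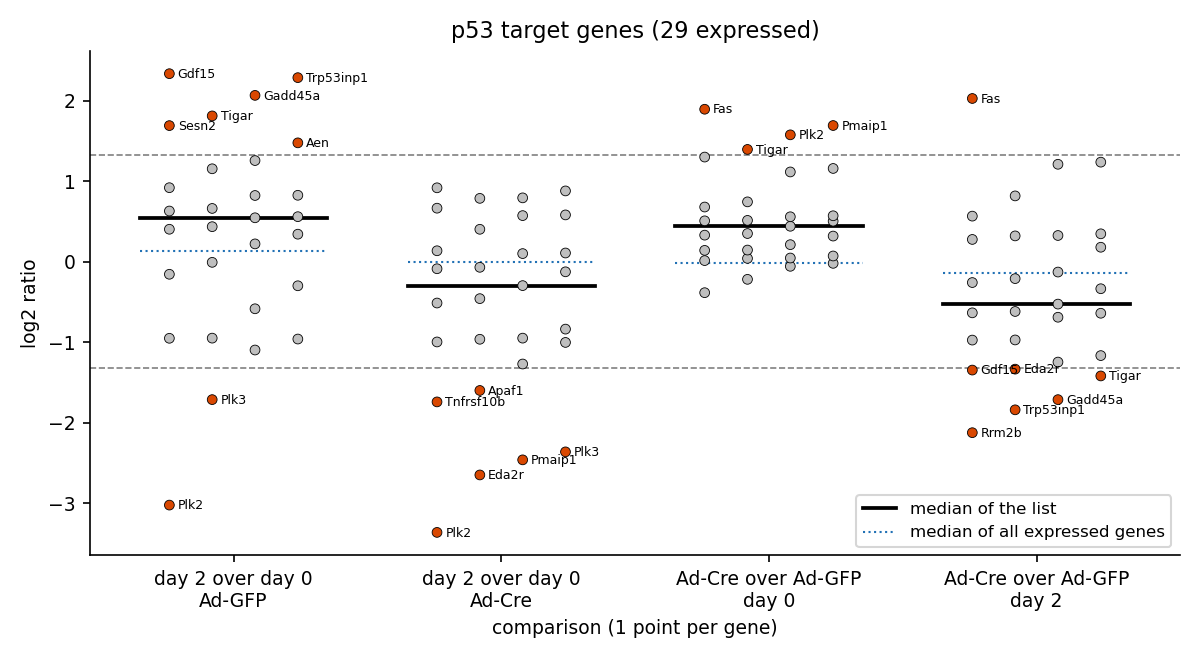
Log2 ratios of the 29 expressed p53 target genes in the 4 comparisons, 1 point per gene, with genes past 2.5-fold (dashed lines) in orange and named. Black bars give the median of the list (0.55, -0.30, 0.44 and -0.53 from left to right) and dotted lines that of all expressed genes (0.14, -0.01, -0.02 and -0.14).

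Among 16 expressed p53 regulators and family members, Hipk2 (log2 ratio 1.47) and Mdm4, encoding an inhibitor of p53 related to MDM2 (1.35), rose past 2.5-fold with time in Ad-GFP cells. Of all expressed genes 8.43% did so. Neither passed the cutoff with the length trend divided out, and Hipk2 alone did with GC content divided out as well. At day 2, 4 were past 2.5-fold lower with Ad-Cre than with Ad-GFP, which were Mdm4 (-2.05, 1019 against 193 reads) and the kinase genes Atr (-1.96), Atm (-1.55) and Hipk2 (-1.33), where 9.87% of all expressed genes were lower. With the length trend divided out Mdm4 alone was past the cutoff, and with GC content divided out as well 0 were. None passed it at day 0 or with time in Ad-Cre cells, and Trp63 and Trp73, the family members of Trp53, had no more than 4 reads in any library.

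Cdkn1c, which encodes p57, the third CIP/KIP protein, ranged more widely than any of the 10 genes, with 25.8 RPKM in Ad-GFP day 0, 72.9 in Ad-GFP day 2, 5.78 in Ad-Cre day 0 and 176 in Ad-Cre day 2. It rose with time in both kinds of cells (log2 ratio 1.50 with Ad-GFP and 4.93 with Ad-Cre) and was past 2.5-fold lower in Ad-Cre cells at day 0 (-2.16, 861 against 219 reads). At day 2 the log2 ratio was 1.27. It was the single gene past the cutoff among 10 further genes of CDK inhibition and regulation, in each of the 3 comparisons.

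Of 13 cyclin and CDK genes, Ccnd1, encoding cyclin D1, had 1242 reads in Ad-GFP day 0 and 59, 216 and 58 in Ad-GFP day 2, Ad-Cre day 0 and Ad-Cre day 2. It fell with time in Ad-GFP (log2 ratio -4.81) and Ad-Cre cells (-1.78) and was lower in Ad-Cre cells at day 0 (-2.71). Cdk6, a target of INK4 proteins, was higher in Ad-Cre cells at day 0 (34 against 144 reads, log2 ratio 1.90) and fell in them by day 2 (-2.01). It was above 1 RPKM in Ad-Cre day 0 alone (2.99), so the filter favoured both of these calls. Ccnd2, encoding cyclin D2, fell in Ad-Cre cells from 74.6 to 28.7 RPKM (-1.38), inside the cutoff with the length trend divided out. Cdk4, the other INK4 target, had between 169 and 203 RPKM in the 4 libraries, and Ccnd3 between 67.5 and 76.3, with no comparison past the cutoff.

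Among 12 genes of pocket proteins and E2F factors, the relatives of Rb1 had 6.26, 8.78, 6.10 and 3.24 RPKM (Rbl1, p107) and 6.29, 6.27, 5.80 and 3.27 (Rbl2, p130) in Ad-GFP day 0, Ad-GFP day 2, Ad-Cre day 0 and Ad-Cre day 2. Rbl1 was past 2.5-fold lower with Ad-Cre than with Ad-GFP at day 2 (log2 ratio -1.44), a call that ended with the length trend divided out. E2f2 rose with time in Ad-GFP cells (1.37), and E2f7, a repressor among the E2F factors, fell in Ad-Cre cells (-1.35) with -1.32 in Ad-GFP cells, just inside the cutoff. With the length trend divided out, E2f2 was past it in Ad-Cre and no longer in Ad-GFP cells, and E2f7 in Ad-GFP and no longer in Ad-Cre cells.

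No gene of 19 E2F targets of S phase or of 14 mitosis genes passed 2.5-fold in any of the 4 comparisons of the deposited values. The medians of the S phase genes lay between -0.18 and 0.00 on the log2 scale and those of the mitosis genes between -0.42 and -0.18. Mki67, the gene of a proliferation marker, had 51.5, 28.7, 40.2 and 18.0 RPKM in Ad-GFP day 0, Ad-GFP day 2, Ad-Cre day 0 and Ad-Cre day 2, and Mcm2, encoding a subunit of the replicative helicase, had 76.0, 108, 81.8 and 66.3. These 2 genes were named after their values were seen.

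Of 16 regulators of the INK4 locus, Ets1, a transcription factor known to activate p16INK4a, fell past 2.5-fold with time in both Ad-GFP (37.5 to 6.16 RPKM, log2 ratio -2.61) and Ad-Cre cells (25.1 to 4.22 RPKM, -2.57). Kdm6a, encoding a demethylase of H3K27, was lower with Ad-Cre than with Ad-GFP at day 2 (-1.33, inside the cutoff with the length trend divided out). The Polycomb gene Bmi1, a repressor of the locus, had 12.3, 12.3, 11.9 and 6.22 RPKM in Ad-GFP day 0, Ad-GFP day 2, Ad-Cre day 0 and Ad-Cre day 2, and Ezh2 had 17.1, 19.8, 16.4 and 21.5. Neither passed the cutoff in any comparison. Tbx2, a T-box repressor, was past it in Ad-Cre cells with time (1.59) and at day 2 (2.18), on at most 89 reads. Its RPKM was 0.26, 0.31, 0.46 and 1.39 in the same order of libraries. It thus counted as expressed through Ad-Cre day 2 alone, the numerator of both calls, which the filter favoured. Twist1 (log2 ratio 1.22, 1501 against 2734 reads) and Tbx3 (1.19, 757 against 1351 reads) were higher with Ad-Cre than with Ad-GFP at day 2, inside the cutoff. Tbx3 was past it with the length trend divided out, and with GC content divided out as well. Of the 16 genes, 7 had a day 2 Ad-Cre/Ad-GFP ratio above 1 and 9 below. Bmi1, Ezh2, Tbx2, Tbx3 and Twist1 were named after their values were seen.

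The 2 genes with the widest range over the libraries were Rb1 (4.09-fold) and Cdkn2a (4.03-fold), where the median log2 range of 11713 genes with reads in all libraries was 1.15 and those of Rb1 and Cdkn2a were 2.03 and 2.01. Among 8625 other genes with at least 100 reads in every library, the patterns closest to Rb1, by the root mean square distance of centred log2 RPKM over the 4 libraries, were those of Ifrd1 (0.050), Pag1 (0.079) and Syde2 (0.11). Those closest to Cdkn2a were Selenow (0.025), Hoxa5 (0.098) and Cbx6 (0.13). Among the genes studied the closest pairs were Cdkn1b and Trp53 (0.27), Cdkn2a and Cdkn2b (0.28) and Mdm2 and Ccng1 (0.37). Distances over 4 libraries describe these libraries alone.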

How the data were processed

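RNA was sequenced by the authors as 50-base reads, aligned to NCBI37/mm9 through the Illumina pipeline, and reads on RefSeq exons were collected. The submitters' processing notes name bedtools 2.16 and SICER 1.1 without a role. The authors deposited a raw read count and an RPKM for every transcript, the latter normalized to exon length and library total. The library totals were recovered from counts and RPKM as the step that gives whole exon lengths. Counting and treatment of reads with several matches are not given in the sources used here.

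Symbols came from RefSeq (GRCm38.p6, names alone), coordinates from GENCODE vM1 on NCBI37/mm9, and promoters from RefSeq GRCm38.p6, where Rb1 was not matched. Per symbol the transcript with most reads was kept. The RPKM threshold of 1 and the 2.5-fold cutoff follow the study's methods, but genes counted as expressed when above it in any of the 4 libraries, while the study used the Ad-GFP libraries (an alternative here). No test was run, since each condition has 1 library. Exact binomial 95% intervals used scipy 1.17.1, and TMM factors edgeR 4.0.16 in R 4.3.3 on the counts of expressed genes. Windows of 50 bases, every 10 bases, were searched for in the genome by blastn 2.17.0. Tables were handled in Python 3.11.15 (pandas 2.3.3, numpy 2.4.6) and drawn with matplotlib 3.10.9. The totals, ratios, intervals and calls were tested on simulated data. Of each gene list, genes past 2.5-fold with at least 100 reads in a library were named, at most 4 per direction and comparison, with any expressed cyclin, CDK, pocket protein or E2F gene. For the 2 genes with the widest range the 3 closest patterns were named. The genes and lists were chosen with earlier results of these data known. The alternatives were 11 planned settings of scaling, cutoff, pseudocount, filters, transcript choice and length, and 1 added.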

Additional observations from a re-analysis of the deposited data

Results flagged for a closer look

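Between Ad-GFP and Ad-Cre cells, 6 of the genes moved in opposite directions from day 0 to day 2, each beyond counting error in the deposited values. The share of all expressed genes that did so was not computed, so this count does not set these genes apart. The difference of the log2 ratios, Ad-Cre minus Ad-GFP, was 2.47 for Cdkn2a and 2.18 for Cdkn2b, which were lower at day 2 in Ad-GFP cells and higher in Ad-Cre cells. It was -2.88 for Rb1, -1.99 for Ccng1, -1.16 for Mdm2 and -0.85 for Cdkn1a, which were higher at day 2 in Ad-GFP cells and lower in Ad-Cre cells. With 1 library per condition the difference was not tested. Since all of it rests on the Ad-Cre day 2 library as much as on the other 3, that library's length trend stands beside it: with the trend divided out the difference was 1.76 for Cdkn2a, 1.79 for Cdkn2b, -2.36 for Rb1, -1.52 for Ccng1, -0.85 for Mdm2 and -0.90 for Cdkn1a. With GC content divided out as well it was 1.34, 1.57, -2.04, -1.12, -0.48 and -1.06 in the same order, with no change of sign of the difference. In that setting the change with time in Ad-Cre cells alone was 1.00, 1.06, -0.26, -0.96, -0.12 and -0.69 in the same order. It was smallest for Mdm2 and Rb1, and no interval was computed in that setting.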

How the results depend on the processing

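No paired analysis was possible because each condition has 1 library. Of 96 counts of genes past the cutoff under 12 alternatives, 78 were within 1.5 times the reported count and 18 moved. A 4-fold cutoff gave 1 gene higher with time in Ad-GFP cells (Rb1), 1 higher (Cdkn2a) and 0 lower in Ad-Cre cells, 0 higher at day 0, and 0 higher and 0 lower for the day 2 Ad-Cre/Ad-GFP ratio. Dividing out the length trend gave 0 higher and 0 lower with time in Ad-Cre cells. Dividing out length and GC trends, added after the data had been seen, gave 1 higher with time in Ad-GFP cells (Rb1), 0 higher and 0 lower in Ad-Cre cells, and 0 and 0 for the day 2 Ad-Cre/Ad-GFP ratio. Requiring the interval to pass the cutoff gave 0 higher at day 0. TMM factors, the sum of counts as total, and a 2-fold cutoff each gave 2 higher at day 2 (Cdkn2a and Cdkn2b), and 2-fold gave 2 lower (Ccng1 and Rb1). No called ratio changed sign. Of 270 single values, 172 stayed within their counting interval and 2 changed sign, both of Trp53 with length and GC trends divided out (-0.06 for the day 2 Ad-Cre/Ad-GFP ratio). Apart from the changes by construction of cutoff, total or bins, the cause was not tested. Depth limits Rb1 most, with 117 to 639 reads, and Cdkn2d had no reads.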
